A study of Mus musculus with 14 samples.

Results

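The regions described here are the wide ones, spanning about 3 kb or more (a listed width of 2999 bp or more) and paired with a single gene, among regions that the authors listed as differing in chromatin accessibility between groups of mouse yolk sac cells. They were selected on their listed width within each comparison, and 461 of the 9954 listed regions qualified, near 385 genes. A further 67 regions of this width were paired with several genes and are left out. The assay was ATAC-seq, where a transposase (Tn5) cuts open DNA and tags it for sequencing, on 500 erythro-myeloid progenitors sorted per sample from yolk sacs of C57BL/6 embryos at stage E10.5. All embryos carried Ezh2fl/fl, in which the gene of the histone methyltransferase Ezh2 carries recombination sites. The 5 Tie2 KO samples also carried the Tie2-CreTg/+ transgene and the 3 Vav KO samples Vav-CreTg/+, while the 3 Tie2 WT samples (Tie2-Cre+/+) are labelled wild type and served as control. A further 3 samples, the Vav WT controls (labelled Vav-Cre+/+), enter none of the lists. Tie2-Cre acts in endothelium and in the blood cells that arise from it, and Vav-Cre in blood cells. The sources used here do not say whether a sample held 1 embryo or several.

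The Polycomb complex PRC2, whose enzyme is Ezh2, places methyl groups on lysine 27 of histone H3. In many cell types this mark covers broad, CG-rich stretches around the starts of silent genes of embryonic patterning, and these stretches can run for several kilobases. Erythro-myeloid progenitors are transient cells of the yolk sac from which red cells, megakaryocytes, mast cells and macrophages arise.

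Each listed region carries the authors' own log2 fold change and adjusted p-value, with no value for any sample. Depth and the spread between samples are therefore unknown, and the labelled cell type could not be checked against the level of its markers. Fold change, p-value and direction come from the same comparisons as the width, so they are given as descriptions and no test was run on them. Coordinates are in mm10.

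Promoter sequence is shown for genes of the widest regions over a gene start, to show how far they differ in CG dinucleotides, in which the centres of Polycomb domains are often rich. The search was for CG, which reads the same on both strands, in the 250 bases before the RefSeq gene start (build GRCm38.p6, 5′ to 3′, CG in capitals). Of all 32851 windows of that length in the RefSeq table, 92.1% held at least 1 CG, with a median of 6 and quartiles of 2 and 16. The window of Tek, under the widest higher region, held 2 CG (chr4:94739039-94739288, plus strand), and that of Pdgfra 4 (chr5:75152001-75152250, plus strand). The window of Flrt2 held 12 (chr12:95691976-95692225, plus strand) and that of Pdgfa 28 (chr5:138994945-138995194, minus strand). Under the widest lower regions, the window of Cpa3 held 3 (chr3:20242182-20242431, minus strand) and that of Exoc7 19 (chr11:116306735-116306984, minus strand). Each window lay wholly inside its wide region. The counts of Pdgfa and Exoc7 lay above the upper quartile of all windows, and those of Tek, Cpa3, Pdgfra and Flrt2 at or between the quartiles.
Tek: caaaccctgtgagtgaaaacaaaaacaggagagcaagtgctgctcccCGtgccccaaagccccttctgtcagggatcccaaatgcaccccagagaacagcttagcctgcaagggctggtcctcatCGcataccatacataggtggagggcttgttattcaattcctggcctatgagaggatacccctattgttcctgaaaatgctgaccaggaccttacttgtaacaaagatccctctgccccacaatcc
Pdgfra: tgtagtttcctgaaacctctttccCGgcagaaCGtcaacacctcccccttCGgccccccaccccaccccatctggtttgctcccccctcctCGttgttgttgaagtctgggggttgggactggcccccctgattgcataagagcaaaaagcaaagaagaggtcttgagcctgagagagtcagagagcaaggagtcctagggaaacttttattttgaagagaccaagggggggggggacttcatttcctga
Flrt2: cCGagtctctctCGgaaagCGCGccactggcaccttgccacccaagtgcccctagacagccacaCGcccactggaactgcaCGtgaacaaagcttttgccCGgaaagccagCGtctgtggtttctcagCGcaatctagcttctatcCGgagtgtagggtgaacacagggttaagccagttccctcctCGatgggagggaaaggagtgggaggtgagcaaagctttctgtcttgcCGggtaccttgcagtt
Pdgfa: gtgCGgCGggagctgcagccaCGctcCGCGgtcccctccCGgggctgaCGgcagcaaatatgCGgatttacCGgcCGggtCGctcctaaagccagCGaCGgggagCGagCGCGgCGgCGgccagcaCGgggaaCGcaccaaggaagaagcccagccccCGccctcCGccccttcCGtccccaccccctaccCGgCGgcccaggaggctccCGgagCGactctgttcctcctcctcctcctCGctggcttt
Cpa3: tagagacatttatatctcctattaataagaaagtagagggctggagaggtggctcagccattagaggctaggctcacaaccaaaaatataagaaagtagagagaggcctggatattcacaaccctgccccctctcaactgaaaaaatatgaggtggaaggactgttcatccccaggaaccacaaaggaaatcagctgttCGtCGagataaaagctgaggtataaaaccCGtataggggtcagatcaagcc
Exoc7: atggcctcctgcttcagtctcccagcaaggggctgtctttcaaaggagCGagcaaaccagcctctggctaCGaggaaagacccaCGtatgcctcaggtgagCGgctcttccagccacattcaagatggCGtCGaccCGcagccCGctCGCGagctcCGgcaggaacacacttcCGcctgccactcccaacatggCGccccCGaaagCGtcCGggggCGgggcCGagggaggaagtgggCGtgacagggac

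Hes1 and Mir3083 also met the rule for printing, and are named only. Among the wide regions were those of 4 microRNA genes, whose mature RNAs are short guides that silence messages matching their seed, bases 2 to 8, in capitals. In Tie2 KO against Tie2 WT, wide regions contained the whole of Mir196a-1 and Mir3083, while those of Mir129-2 and Gm23450 ended upstream of the gene. In Tie2 KO against Vav KO the region of Mir196a-1 also ended upstream of it. The RefSeq table gives 7 mature sequences for the 4 genes, with 7 different seeds. The microRNA miR-196a lies within the Hoxb cluster and is known to target Hox messages.
miR-196a-5p: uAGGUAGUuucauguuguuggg
miR-196a-1-3p: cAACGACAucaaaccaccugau
miR-129-5p: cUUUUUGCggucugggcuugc
miR-129-2-3p: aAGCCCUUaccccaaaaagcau
miR-3083-5p: aGGCUGGGaauauuucagagau
miR-3083-3p: uCCGAAACauucccagccuuua
miR-935 (listed gene Gm23450): cCCAGUUAccgcuuccgcuaccgc

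Tie2 KO set against Tie2 WT, which asks where accessibility differs when Ezh2 is deleted with the endothelial driver, held 307 of the wide regions, 305 higher and 2 lower in the knockout. The widest of the higher ones, after that of Tek, lay at Pdgfra, Hes1, Sfrp2, Onecut2, Adgrb2 and Barx1. Protein-coding genes with a higher wide region numbered 276, which is 1.26% of the 21896 in the RefSeq table, while 11.5% had a higher region of any width.

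In the authors' deposited table the log2 fold changes of the 305 ran from 0.62 to 2.9 with a median of 1.03, the same median as that of the 2441 narrower higher regions of a single gene. Widths ran from 2999 to 12899 bp with a median of 3599 bp. The median adjusted p-value in the authors' deposited table was 4.89e-07 for wide and 5.78e-05 for narrower higher regions. Across the 2746 higher regions of a single gene, which share their libraries, width had a Spearman correlation of 0.00264 with the fold change and -0.629 with the adjusted p-value. Wide regions had the smaller median adjusted p-value and the same median fold change. Width and p-value come from the same comparison, so their relation is a description only. Fold change hardly varied with width. The plot of width against fold change shows this flat spread.

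**Figure D1:**
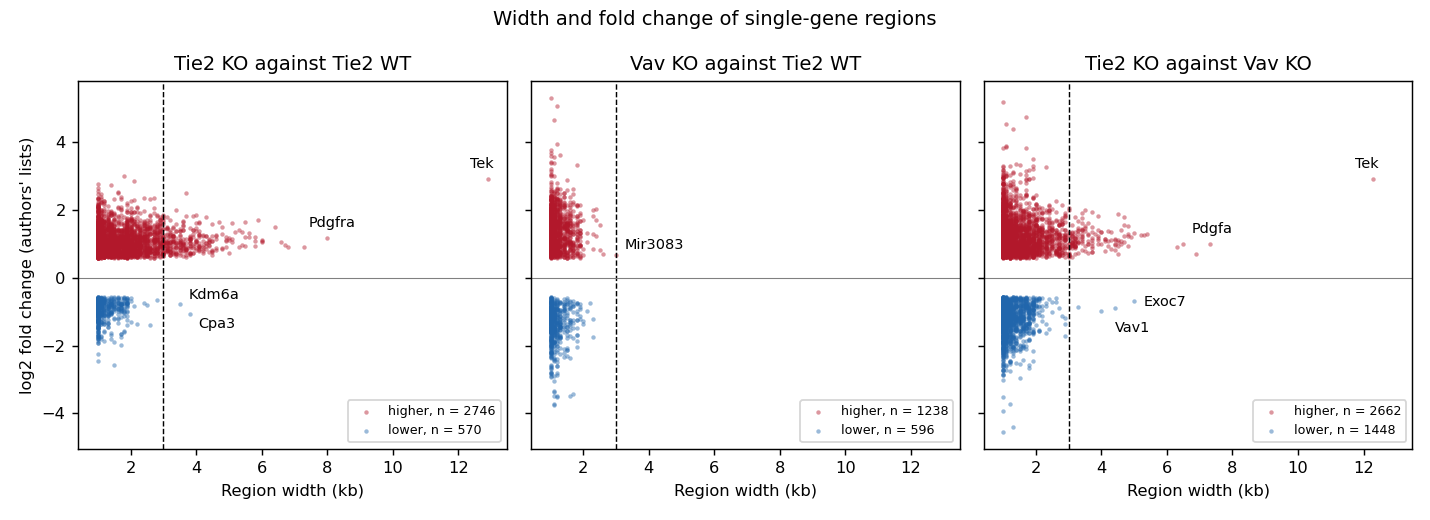
Each point is a region paired with a single gene, with its width in kb on the x axis and the authors' log2 fold change on the y axis, higher regions in red and lower ones in blue, for the 3 comparisons. The dashed line marks the width threshold, to the right of which lie 307, 1 and 153 regions.

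The widest region after that of Tek lay over Pdgfra, the receptor of PDGF-A and a marker of mesenchyme, spanning 7999 bp on chromosome 5 from 75147902 to 75155900. It reached 4389 bp upstream and 3609 bp downstream of the gene start, with a log2 fold change of 1.17 and an adjusted p of 1.65e-07 per the authors' deposited table. Hes1, a repressor that acts downstream of Notch, lay entirely within a region of 7299 bp with a log2 fold change of 0.91 per the authors' deposited table. A second wide region of 3599 bp ended 3456 bp upstream of Hes1, at 1.54 per the authors' deposited table. Sfrp2, a secreted Wnt inhibitor, had a region of 6799 bp at 0.89. Onecut2, a homeobox factor, followed with 6699 bp at 0.97, and Adgrb2, an adhesion receptor of the brain, with 6599 bp at 1.06, all in the authors' deposited table. The region of Barx1, a homeobox factor of stomach mesenchyme, spanned 6399 bp and lay almost wholly upstream, reaching 5834 bp before and 564 bp past the gene start. Nog, Col2a1 and Lhx6 each had a region of 5999 bp. They encode a BMP antagonist, the main collagen of cartilage and a LIM homeobox factor of interneurons, and their log2 fold changes, as the authors' deposited table gives them, were 1.04, 1.1 and 1.09.

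The largest fold changes lay elsewhere. After Tek at 2.9, the authors' deposited table gives a log2 fold change of 2.48 at Slit3, an axon guidance ligand, and 1.98 at the BMP family gene Bmp3. The transcripts 4833428L15Rik and Gm11538 both stood at 1.85 and Dact2, a modulator of Wnt and TGF-beta signalling, at 1.83 per the authors' deposited table. The regions of these 5 genes were 2999 to 3999 bp wide, beside a median of 3599 bp for all 305. The smallest adjusted p-value among wide regions of this comparison in the authors' deposited table was 5.43e-08. Kcnq3, a neuronal potassium channel, at a log2 fold change of 0.99, and Gap43, a growth cone protein, at 1.71, were among those with this p-value.

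Of the 305 higher wide regions, 272 (89.2%) covered the gene start, against 49.6% of narrower ones, and a wider region covers a start more easily. The 33 others ended 161 to 4986 bp upstream of the start. No listed region of a single gene lay wholly past the start, in any comparison. The shares over a start are therefore partly set by which regions were listed. Those over a start reached a median of 1467 bp upstream and 2111.5 bp downstream, and 175 of the 272 (64.3%) reached further downstream than upstream. Whole genes lay inside 15 of them. These genes were short, from 64 to 2854 bp, among them Hes1, Nog, Tcf21, Ascl2, Adm, Mt1 and the G protein-coupled receptor gene Gpr6. The median share of the gene covered was 5.54%, so most wide regions took up only the first part of their gene.

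**Figure D2:**
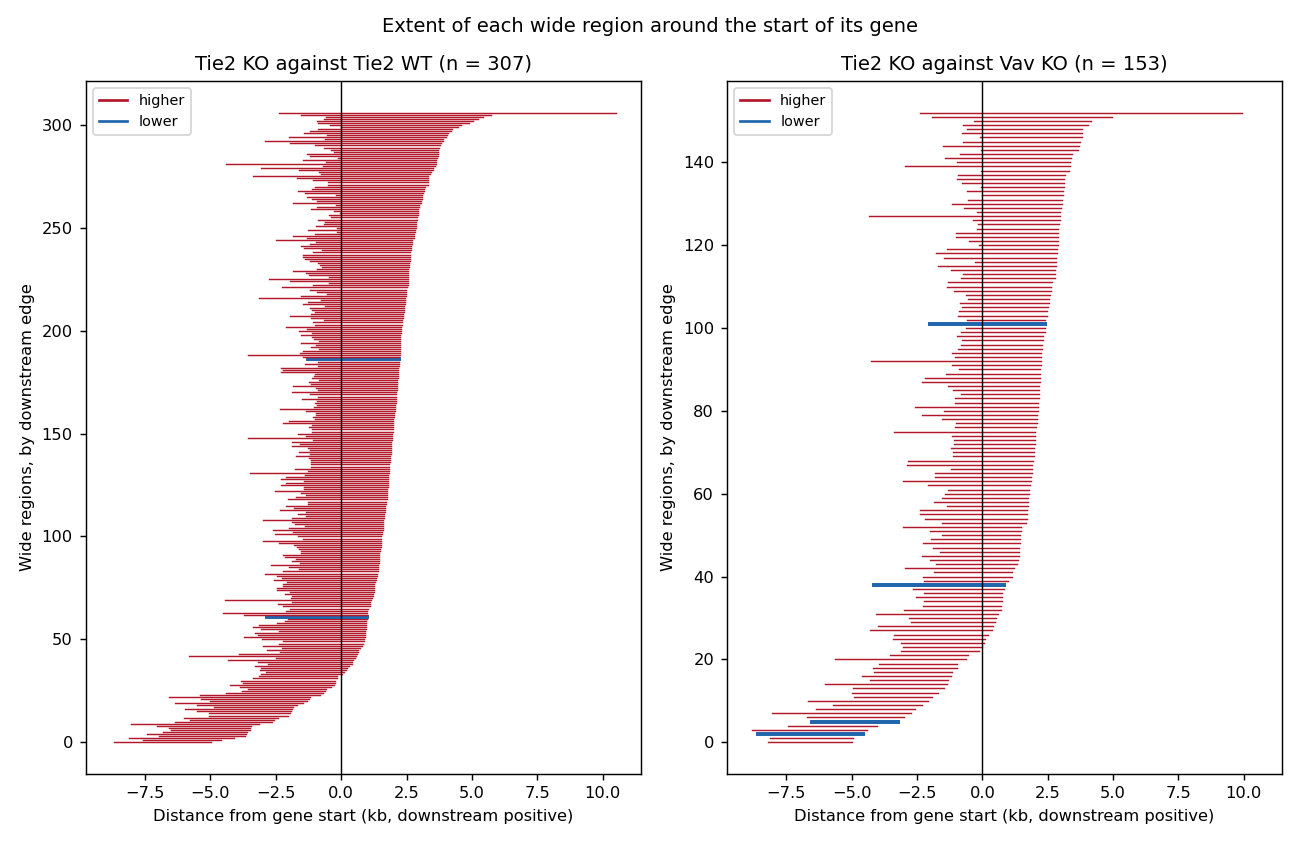
Each line is 1 wide region, drawn in kb around the start of its gene at 0 with transcription to the right, sorted by its downstream edge, in red where higher and in blue where lower. In both comparisons most regions span the start, with the region of Tek reaching 10511 bp and 9911 bp past it, and the lower regions are 2 of 307 and 4 of 153.

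In Tie2 KO against Tie2 WT, direction and position differed between classes of width. The share of higher regions was 73.1% under 1.5 kb, 86% from 1.5 to 2 kb, 98.5% from 2 to 3 kb and 99% from 3 to 4 kb, and all 100 regions of 4 kb or more were higher. Of the higher regions, 28.7%, 62.8%, 81% and 87.8% lay over a gene start in the same classes, then 90% from 4 to 5 kb and 96.7% at 5 kb or more. The median log2 fold change of higher regions stayed between 0.99 and 1.12 in all 6 width classes. Against Vav KO the share of higher regions was 58.1% under 1.5 kb, 89.8% from 2 to 3 kb and 99.1% from 3 to 4 kb, then 94.6% of the 37 regions from 4 to 5 kb and 90% of the 10 of 5 kb or more. The share of higher regions over a start there was 91.4% from 4 to 5 kb and 77.8% of the 9 of 5 kb or more. In Vav KO against Tie2 WT the share of higher regions was 66.4%, 74.3% and 71.4% in the 3 classes up to 3 kb, the last with 21 regions.

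**Figure D3:**
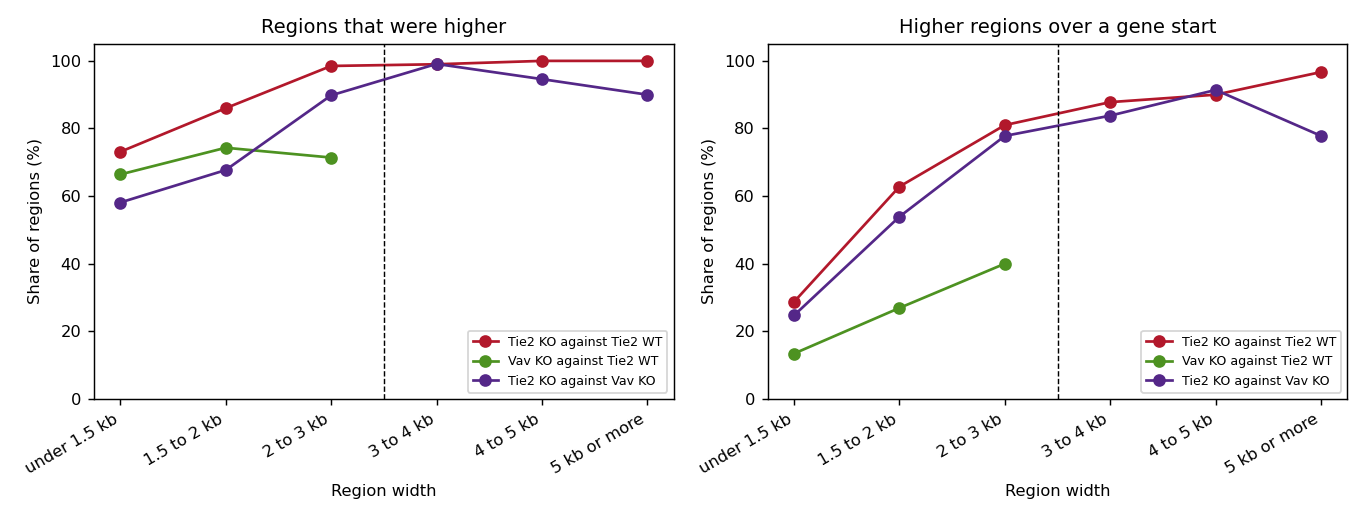
Share of regions that were higher (left) and share of the higher regions that covered a gene start (right), in percent, by class of region width for the 3 comparisons, with the dashed line at the width threshold. Classes with fewer than 5 regions are not drawn, and both shares were largest above 2 kb in the comparisons of Tie2 KO.

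Regions just inside and just outside the threshold mostly had the same direction. The 44 regions of exactly 2999 bp were all higher, with a median log2 fold change of 1.01, and 38 covered a gene start. The 34 regions of 2899 bp, just below it, were also all higher, with a median of 1.17, and 30 covered a start. At the same edge against Vav KO, the 17 regions of 2999 bp were all higher with a median of 0.91, and 25 of the 28 regions of 2899 bp were higher, with a median of 1.19. Against Tie2 WT, genes just inside were Twist1, Olig3, Six2 and Ccnd1, and just outside were Krt19, Tbx5, Pax5 and Ntf3.

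Developmental transcription factors had 46 of 355 genes (13%) with a higher wide region in Tie2 KO against Tie2 WT, against 1.26% of all protein-coding genes. A higher region of any width lay near 228 of them (64.2%, against 11.5%). Log2 fold changes of the wide ones ran from 0.7 to 1.62 per the authors' deposited table, with a median of 1.11. No gene of this list had a lower wide region. The shares are a description, since the same comparison chose the regions.

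By family, LIM homeobox genes, which specify neurons and limbs, had 4 of 12 with a wide region (Lhx6, Lhx2, Lmx1a and Lmx1b). T-box genes, regulators of mesoderm, limb and heart, had 4 of 17, namely Tbx3, Tbx15, Tbx18 and Eomes, with log2 fold changes from 0.75 to 1.25 per the authors' deposited table. Of a list of other homeobox genes, which also holds a few factors of other families, 11 of 74 had one, with Onecut2, Barx1, Rax and En2 among the widest. Bcl11b, a zinc finger factor, is counted in that list. Basic helix-loop-helix genes numbered 8 of 56, among them Hes1, Tcf21 and the neural factor Atoh1. Pax genes numbered 2 of 9, of which Pax9 had a pair of wide regions, at 1.11 and 0.84 per the authors' deposited table, and Pax3 had 1. A list of zinc finger genes and some other factors numbered 5 of 52, including the AP-2 factor Tfap2c, with Sall1 holding 2 wide regions at 1.14 and 1.51 per the authors' deposited table. Hox genes numbered 3 of 39 or 7.69% (Hoxb7, Hoxc5 and Hoxc6), while 32 of 39 lay near a higher region of some width. Hox genes stand close together, and regions paired with more than 1 gene are left out here. The effect of this on the Hox count was not tested. Of Sox genes 0 of 19 had a wide region, which cannot be told apart from the 1.26% of all protein-coding genes. A higher region of any width lay near 7 of these 19 (36.8%).

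Of the 4 signalling lists, 16 of 219 genes (7.31%) had a higher wide region, against 1.26% of all protein-coding genes. By list the shares were 10.3% for Wnt, 6.25% for BMP and TGF-beta, 7.69% for Hedgehog, Notch and retinoid, and 2.63% for FGF. Wnt genes numbered 8 of 78, with the secreted inhibitors Sfrp2 and Sfrp1, the ligands Wnt9a, Wnt4, Wnt3 and Wnt11, the receptor Fzd2 and the transcription factor Lef1. Their log2 fold changes, as the authors' deposited table gives them, ran from 0.81 to 1.61. BMP and TGF-beta genes numbered 4 of 64, which were the ligands Bmp7 and Bmp3 and the antagonists Nog and Grem1. Hedgehog, Notch and retinoid genes numbered 3 of 39, namely the ligands Ihh and Dll1 and the retinoic acid binding protein gene Crabp1. FGF genes numbered 1 of 38, the intracellular family member Fgf14.

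**Figure D4:**
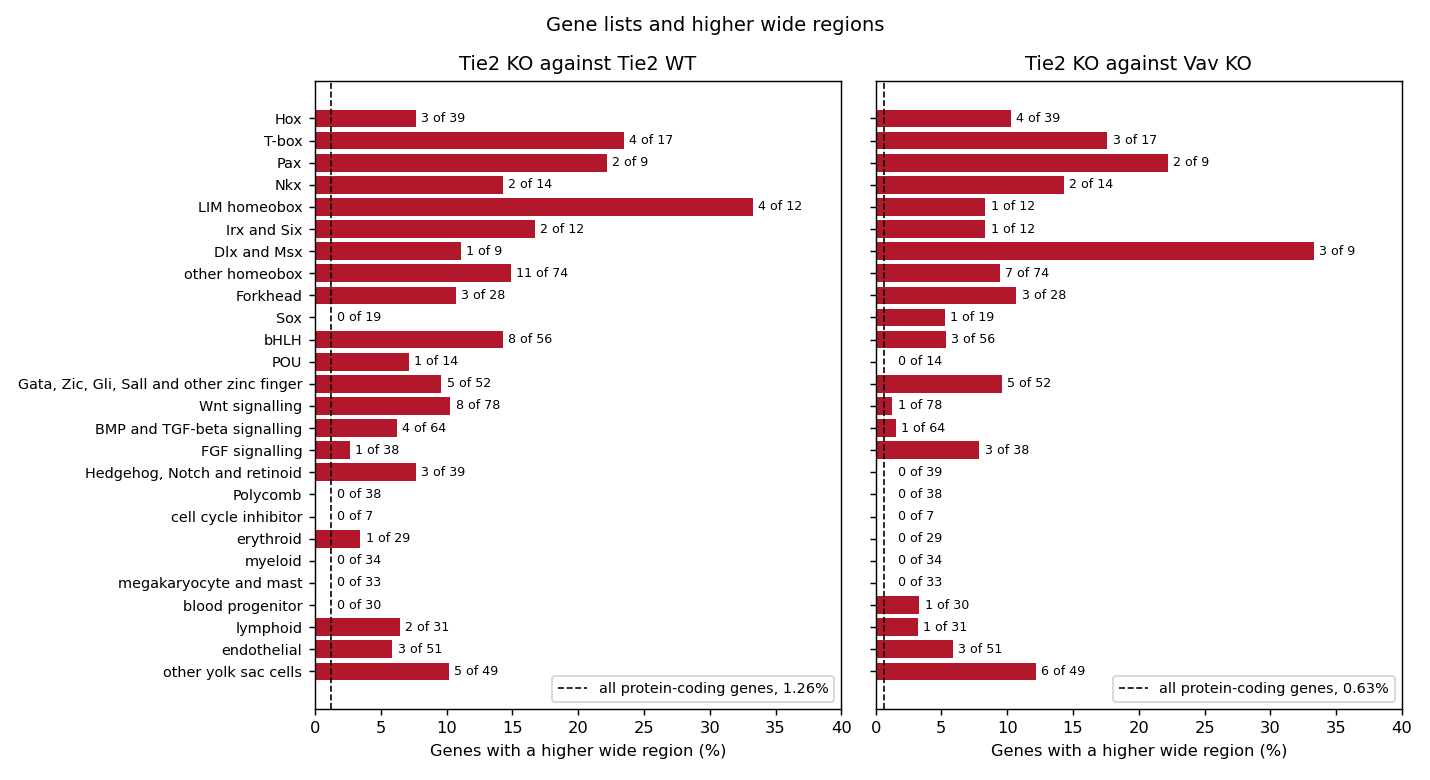
Share of each gene list with a higher wide region, in percent, for Tie2 KO set against Tie2 WT and against Vav KO, with the number of genes beside each bar and a dashed line at the share of all protein-coding genes. LIM homeobox genes reach 4 of 12 on the left and Dlx and Msx genes 3 of 9 on the right. Myeloid genes stand at 0 of 34 in both, which cannot be told apart from the 1.26% and 0.63% of all protein-coding genes.

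Most genes with a wide region, 232 of 303, are on none of these lists, and 4 further groups were put together from them after their values were seen. These groups have no list size, so no share can be set beside the 1.26% of all protein-coding genes and nothing is read from their counts. Ion channel genes numbered 17, from Kcna1 at 4799 bp to Kcng2 at 2999 bp, with a median log2 fold change of 1.07 per the authors' deposited table. They included the calcium channel gene Cacna1h, the sodium channel gene Scn8a and the pacemaker channel gene Hcn4. Extracellular matrix genes numbered 18, of which 8 encode collagens, with a median of 0.99 per the authors' deposited table. Axon guidance and neural adhesion genes numbered 12, led by Sdk2 at 5499 bp, with Slit3, Unc5a, Plxna4, Rgma and Sema5b among them. Growth factor and receptor genes numbered 10. Both Pdgfra and its ligand gene Pdgfa were there, as were the neurotrophin receptor gene Ngfr and Gdnf with its receptor gene Gfra1.

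On the 5 blood lists together, 3 of 153 genes (1.96%) had a higher wide region, beside 1.26% of all protein-coding genes. Of 29 erythroid genes only Ank1, a protein of the red cell membrane skeleton, had a higher one, of 3399 bp at a log2 fold change of 1.03 per the authors' deposited table. Higher wide regions were listed for 0 of 34 myeloid genes, 0 of 33 megakaryocyte and mast cell genes and 0 of 30 blood progenitor genes. The 2 lymphoid genes with one were Bcl11b and Eomes, which are on the developmental lists too. Of Polycomb genes 0 of 38 had a higher one, and of cell cycle inhibitor genes 0 of 7. In lists this small, 0 cannot be told apart from the 1.26% of all protein-coding genes. A higher region of any width lay near 6 of the 38 Polycomb genes (15.8%) and 4 of the 7 cell cycle inhibitor genes (57.1%), beside 11.5% of all protein-coding genes. Among markers of the other cells that a yolk sac sort could hold, 5 of 49 had one, among them Pdgfra, Cdh1 and Twist1. Of 51 endothelial genes 3 had one, which were Tek, the ephrin receptor gene Ephb4 and the VEGF receptor gene Flt1. The regions of Ephb4 and Flt1 spanned 4399 and 4199 bp, at 1.15 and 0.95 per the authors' deposited table. In cell mixtures, more cells of a type and more open DNA per cell cannot be told apart, and the part of other cell types in these values was not tested.

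The region of Tek, which encodes the angiopoietin receptor Tie2, was the widest and had the largest fold change. It spanned 12899 bp on chromosome 4 from 94736902 to 94749800, from 2387 bp upstream to 10511 bp downstream of the gene start. In the authors' deposited table its log2 fold change was 2.9 and its adjusted p 0.00132, the largest adjusted p of the 307. The next widest region was 7999 bp. Against Vav KO it spanned 12299 bp, with 2.92 and an adjusted p of 0.000921 per the authors' deposited table. No region of Tek was listed for Vav KO against Tie2 WT. Tie2-Cre transgenes are built with Tek regulatory sequence and were present only in the Tie2 KO samples, so signal from the transgene and from the gene itself cannot be told apart.

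The pair of lower wide regions lay over the starts of Cpa3, a protease of mast cells, and Kdm6a, an X-linked demethylase of the mark that Ezh2 writes. The Cpa3 region spanned 3799 bp on chromosome 3, mostly upstream, with a log2 fold change of -1.07 and an adjusted p of 5.08e-06 per the authors' deposited table. Against Vav KO, 2 narrower regions of Cpa3 were lower, of 2699 and 1799 bp, at -0.89 and -1.62 per the authors' deposited table. For Kdm6a the authors' deposited table gives -0.79, an adjusted p of 3.26e-05 and a width of 3499 bp, and no region of this gene was listed in the other comparisons. Kdm6a escapes X inactivation and has a Y-linked relative, Uty. In the authors' deposited table a region over the start of Uty had a log2 fold change of 0.99 in Tie2 KO against Tie2 WT and stood at 1.29 in Vav KO against Tie2 WT. Just upstream of it a region stood at -1.94 in Tie2 KO against Vav KO in the authors' deposited table. The sex of the embryos is not in the labels used here, and its part in the Kdm6a value was not tested.

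Neighbouring wide regions were rare. Within 10 kb of another of the same direction lay 16 of the 307, as 8 pairs. The longest stretch ran over 15299 bp of chromosome 11 in the Hoxb cluster, from 96251002 to 96266300, with 5899 bp paired with Gm53 and 5599 bp with Mir196a-1. Hoxc6 and Hoxc5 formed a pair of 14599 bp on chromosome 15. Pairs at a single gene lay at Hes1, Pax9, Sall1 and Zfp423, a zinc finger gene whose regions of 3699 and 2999 bp stood at 0.8 and 0.71 per the authors' deposited table.

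Vav KO set against Tie2 WT held a single wide region among 1943. It spanned 2999 bp on chromosome 17 from 26946702 to 26949700 and contained the whole of Mir3083, whose mature sequences are given among the microRNAs. Its log2 fold change was 0.68 and its adjusted p 6.1e-05 per the authors' deposited table. In Tie2 KO against Tie2 WT, Mir3083 lay in a region of 3899 bp at 0.73 per the authors' deposited table, and both comparisons share the Tie2 WT samples. The next narrower region was that of B3gnt8, of 2599 bp at 0.71 per the authors' deposited table. Of the narrower regions of Vav KO, 1237 were higher and 596 lower, and only 15.7% of the higher ones covered a gene start. The groups differ in number and in Cre line, with 5 Tie2 KO and 3 Vav KO samples, and the effect of sample number on width was not tested.

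Tie2 KO set directly against Vav KO, which asks where the knockouts differ, held 153 wide regions, 149 higher in Tie2 KO and 4 lower. Besides Tek, the widest higher ones lay at Pdgfa, Flrt2, Tbx3, Onecut2 and Dact2, which encode factors of patterning, adhesion and cell signalling. Protein-coding genes with a higher wide region numbered 138, or 0.63% of the RefSeq table, while 11.1% had a higher region of any width. Of the 149, 127 (85.2%) covered the gene start, against 39.2% of narrower higher regions. The median log2 fold change in the authors' deposited table was 1.12 for wide and 1.18 for narrower higher regions, and across all 2662 higher regions of a single gene the Spearman correlation of width was -0.132 with the fold change and -0.469 with the adjusted p.

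Pdgfa, a growth factor of mesenchyme, had a region of 7299 bp on chromosome 5 from 138992002 to 138999300, at a log2 fold change of 0.99 per the authors' deposited table. Flrt2, an adhesion protein that binds the guidance receptor family Unc5, had 6899 bp at 0.7 per the authors' deposited table. Tbx3 had 6499 bp at 0.98, Dact2 5399 bp at 1.29, and Dmrt3, a factor of spinal interneurons, 5299 bp at 1.25 per the authors' deposited table. The Dmrt3 region ended 2736 bp upstream of its gene, and that of Prdm16, a zinc finger regulator of blood stem cells and brown fat, ended 628 bp upstream, with 4999 bp at 1.32 per the authors' deposited table. Apart from Tek, the largest fold changes, as the authors' deposited table gives them, were 2.06 at 9530059O14Rik, 1.98 at Hoxc11 and Cadps, 1.94 at Dlx4 and 1.89 at Tcf21. The smallest adjusted p-values were those of Dlx4, Dmbx1, Cdh6 and Bmp3, from 3.89e-07 to 5.02e-07 per the authors' deposited table.

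Developmental factors numbered 35 of 355 (9.86%) with a higher wide region here, beside 0.63% of all protein-coding genes, with log2 fold changes from 0.72 to 1.98 per the authors' deposited table. They included 3 of 9 Dlx and Msx genes (Msx1, Dlx4 and Dlx3), 4 of 39 Hox genes (Hoxb6, Hoxc6, Hoxc11 and Hoxa5) and 3 of 17 T-box genes (Tbx3, Tbx20 and Tbx5). Signalling genes numbered 5 of 219 (2.28%), which were the ligand genes Fgf9, Fgf15 and Bmp3, the receptor gene Fgfr2 and Sfrp2. Among the 49 markers of other yolk sac cells, 6 had one, among them Pdgfra, Tbx20, Foxa2 and Gata6. Of 51 endothelial genes 3 (5.88%) had one, again Tek, Ephb4 and Flt1. On the 5 blood lists together, 2 of 153 genes (1.31%) had one, which were Prdm16 and Bcl11b. The groups put together after their values were seen have no list size, so nothing is read from their counts. Of these, ion channel genes numbered 10, with Kcnk1 at 1.82 per the authors' deposited table. Growth factor and receptor genes numbered 9, with Bdnf, Ntf3 and the neurotrophin receptor gene Ntrk2 among them.

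The 4 lower wide regions lay at Exoc7, Vav1, Zdhhc12 and Cct8. The Vav1 region spanned 4399 bp on chromosome 17 from 57277102 to 57281500, over the start of this gene of blood cell signalling. Its log2 fold change was -0.9 with an adjusted p of 3.22e-05 per the authors' deposited table, and in Vav KO against Tie2 WT the same place was higher, with 2499 bp at 0.81. Vav-Cre transgenes carry Vav1 regulatory sequence and were present only in the Vav KO samples, so here too transgene and gene cannot be told apart. Exoc7, a subunit of the exocyst, had 4999 bp over its start at -0.69 per the authors' deposited table. Against Tie2 WT, a region of 1099 bp inside the upstream part of this stretch stood at -0.66. At Zdhhc12, a palmitoyltransferase gene, 3999 bp ended 4566 bp upstream at -0.99. Cct8, a subunit of the chaperonin that folds actin and tubulin, had 3299 bp ending 3232 bp upstream at -0.87, and against Tie2 WT a region of 1899 bp at the same place stood at -0.87 per the authors' deposited table.

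The places of wide regions were then set side by side between comparisons, which share samples, so overlap is no independent repeat. Of the 305 higher wide regions of Tie2 KO against Tie2 WT, 250 (82%) overlapped a region listed against Vav KO by at least 1 bp, and all of these were higher there too. Of the 2441 narrower higher regions 46% overlapped one, and a wider region overlaps more easily, so the shares are not compared further. Only 72 of the 305 overlapped one of 2999 bp or more, here counting regions paired with several genes too. The overlapping regions against Vav KO had a median width of 2099 bp. Genes with a higher wide region in both numbered 71, which is 23.6% of 301 and 47.7% of 149. The 55 regions with no partner had a median log2 fold change of 0.87, and the 250 with one 1.06. Gfra1, Lifr, Pax9, Nkx2-3, Myo1e and Sdc3 were the widest of the 55. In the other direction 131 of 149 (87.9%) had a partner, against 51% of the 2513 narrower higher regions, and the widest of the 18 without one lay at Megf11, Neurod2 and Bdnf.

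Some genes had a wide region in both comparisons of Tie2 KO. For Onecut2 the authors' deposited table gives 6699 bp at 0.97 against Tie2 WT and 6299 bp at 0.9 against Vav KO. For Barx1 it gives 6399 bp at 1.48 and 4699 bp at 1.55, and for Tcf21 5099 bp at 1.62 and 3399 bp at 1.89. Barx1 and Tcf21 had the wider region against Tie2 WT, while Pdgfa, at 5299 and 7299 bp, and Tbx3, at 5799 and 6499 bp, had the wider one against Vav KO.

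The list of Vav KO against Tie2 WT is shorter, with 1943 regions against 4433, and its regions are narrower. Of the 305, 45 (14.8%) overlapped a region there, against 11.4% of the 2441 narrower higher regions. Of the 279 narrower ones with an overlap, 251 met a higher and 29 a lower region. Of the 45 wide ones, 39 met a higher and 6 a lower region. The largest values among the 39 per the authors' deposited table were at Stmn2, a neuronal tubulin regulator, at 2.03 over 1299 bp, Snph at 1.63 and Gm11538 at 1.61. The 6 with a lower partner were at Pdgfra, Sfrp2, Adcy5, Cacng7, Crybg1 and Frmd4b, and these partners were 999 to 1299 bp wide. At Pdgfra the authors' deposited table gives 1.17 over 7999 bp in Tie2 KO and -1.57 over 999 bp in Vav KO, the narrow one lying wholly inside the wide one. At Sfrp2 the values were 0.89 over 6799 bp and -1.1 over 999 bp in the authors' deposited table, and at Crybg1 0.95 over 3099 bp and -1.33 over 1299 bp. Over the same places, regions of Tie2 KO against Vav KO stood at 1.26 for Pdgfra, 1.05 for Sfrp2 and 1.2 for Crybg1 per the authors' deposited table. Of the 149 higher wide regions against Vav KO, 15 overlapped a region of Vav KO against Tie2 WT, of which 8 met a higher one and 8 a lower one, with 1 meeting both. These 15 are 10.1% of the 149, beside 10.2% of narrower higher regions. Among the 15, Foxa2, an endoderm factor, and Fgf9 met a lower one, at -1.53 and -1.11 per the authors' deposited table. Of the 256 narrower higher regions with an overlap, 78 met a higher and 180 a lower one. Both comparisons share the Vav KO samples.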

How the data were processed

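ATAC-seq was made by the submitters from 14 samples in 4 groups. Per the submitters' processing notes, the build was mm10 and the tools were MACS2 2.1.2, HOMER 4.10, SAMtools 1.3.1, Bowtie2, Picard and FastQC, with no order or role stated. The sources used here give neither the scaling of libraries, nor the forming and testing of regions, nor any shift of reads for Tn5. Any joining of neighbouring stretches would bear on a region's width. Per the file headers, the authors deposited for each region a log2 fold change, an adjusted p-value and other measures in bp, which are the width and the distance to a gene start. Tested on the 6 files, absolute log2 fold changes were 0.58 or more, adjusted p-values 0.0479 or less, widths 999 bp or more and distances 4999 bp or less, with region ends on a grid of 100 bp. Regions further from a gene start are therefore not analysed here. Nor are regions lying wholly past a start, since the lists hold none paired with a single gene. The precision of single values is unknown because depth and replicate spread are.

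In the names of the lists, TKO was taken to mean Tie2 KO, VKO to mean Vav KO, and TWT to mean Tie2 WT. The lists of each comparison were joined with Python 3.11.15 and pandas 2.3.3. Wide regions are those of 2999 bp or more paired with a single gene identifier. Gene types came from the RefSeq table of GRCm38.p6, which matched all 461, and 1 symbol turned into a date was restored. Of 878 entries in 26 gene lists, which share some genes, 876 matched. The members and the lists were chosen with earlier results of these data known. Named genes are the 10 widest, the 6 of largest fold change and the 4 of smallest adjusted p in each comparison and direction, all lower regions, genes with several, up to 6 per list and genes at the threshold. Other genes were named after their values were seen. A comparison of promoter composition between groups of genes was void, because the sequence table held a promoter for 70.1% and 72.5% of protein-coding members, under the 80% needed. Alternatives tried were other widths, stricter thresholds, several-gene regions, merging, leaving out sex chromosomes and a stricter overlap. At least 1 gene with a wide region is not reported here by name.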

Additional observations from a re-analysis of the deposited data

How the results depend on the processing

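The number of wide regions depended on the width set. At 2.5 kb or more there were 522, 4 and 296 for Tie2 KO against Tie2 WT, Vav KO against Tie2 WT and Tie2 KO against Vav KO, and at 4 kb or more 100, 0 and 47, with 100% higher in the first. With an absolute log2 fold change of 1 or more the numbers were 175, 0 and 100, and in the last comparison 100% of those were higher. Developmental factor genes numbered 75 and 55 at 2.5 kb, and 22 and 11 at 4 kb, for Tie2 KO against Tie2 WT and against Vav KO. The other 32 values recomputed stayed within 1.5 times the count or within the exact 95% binomial interval of the share. Among them were those with a stricter adjusted p, with several-gene regions and with neighbours merged. Those without sex chromosomes and with an overlap of 50% of the shorter region were too. Some of these values could not move. The authors' adjusted p-values of wide regions in Tie2 KO against Tie2 WT were at most 0.00132, already under the stricter limit of 0.01. Against Vav KO no wide region lay on a sex chromosome or within 10 kb of another of the same direction. The interval treats regions as separate draws, although they share libraries. Without Tek, an alternative chosen after seeing the data, the widest region was 7999 bp instead of 12899 bp, and 7299 bp instead of 12299 bp. The comparison of promoter sequence was void, so limiting it to genes with a covered start was not run. No paired analysis was possible because the lists hold no value per sample, and for the same reason no replicate could be left out.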
